A study of Mus musculus with 2 samples.

Results

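Plasmacytoid dendritic cells (pDCs) of the spleen were examined in 2 droplet-based single-cell RNA libraries, which came from a wild-type control mouse and from a Berkeley mouse, a model of sickle cell disease (SCD). Cells were selected on their transcripts. A kept cell was called a pDC when it held at least 8 unique molecular identifiers (UMIs, which count captured RNA molecules) of Siglech, Ccr9, Cox6a2 and Klk1 together and at least 3 of Siglech. It also had to hold under 1% of its UMIs in the neutrophil genes S100a8 and S100a9, at most 1 UMI of the conventional DC genes Xcr1 and Clec4a4, and at most 1 UMI of the early B cell genes Vpreb1 and Igll1. This gave 706 pDCs among 9423 kept wild-type cells and 544 among 10635 kept SCD cells, 1250 of 20058 in all. Siglech, Ccr9, Cox6a2, Klk1, S100a8, S100a9, Xcr1, Clec4a4, Vpreb1 and Igll1 were used for the selection, so their values in pDCs describe the choice and test nothing.

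pDCs are the DCs that make type I interferon when endosomal Toll-like receptors meet viral or self nucleic acids. They arise in bone marrow from myeloid and lymphoid progenitors under the E protein TCF4, carry marks of lymphoid history such as rearranged immunoglobulin segments, and reach the spleen largely as non-dividing cells. They present antigen on MHC class II less actively than conventional DCs.

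Both mice were labelled homozygous for Hbatm1Paz, the disrupted mouse alpha globin locus of the Berkeley model, so by its label the control carried targeted alleles too. The wild-type control was labelled a non-sickling littermate with 1 targeted beta globin locus (heterozygous Hbbtm1Tow) and was hemizygous for the human sickle globin transgene Tg(HBA-HBBs)41Paz. The SCD mouse was homozygous for Hbbtm1Tow and for that transgene. The paper describes the Berkeley strain as genetically mixed in its background, and the part of background in any difference below was not tested. The mice were untreated and were 12 to 16 weeks old, and spleen suspensions were enriched for DCs by bead depletion of other cells. With 1 mouse per group no difference has a replicate check, and every interval given covers counting error only, at a level of 95%.

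Before filtering there were 10845 cells with 97880318 UMIs in the library of the control and 13447 cells with 189688217 UMIs in that of the SCD mouse. Hbb-bs, an adult beta globin gene of the Hbbtm1Tow locus, was at 291152 CPM (counts per 1000000 UMIs summed over a class) in erythroid cells of the control and at 2749 CPM in those of the SCD mouse. Hba-a1, a mouse alpha globin gene, was at 108290 and 114242 CPM in these cells although both mice were labelled homozygous for Hbatm1Paz, and the origin of these counts was not tested. Depth in pDCs ran the other way, with a median of 11050 UMIs per wild-type pDC and 9014 per SCD pDC, summing to 8028460 and 5181837 UMIs. The libraries shared 88 cell barcodes, of which 0 were pDCs in both. Doublet calling marked 34 wild-type pDCs (4.82%) and 8 SCD pDCs (1.47%), and these cells were kept. Few cells lay at the threshold of the marker sum. With Siglech at 3 or more, 1 wild-type and 4 SCD cells had a sum of 7, and 3 and 6 cells had a sum of 8. At a marker sum of 8 or more, 18 wild-type cells and 1 SCD cell held no Siglech UMI. The limit on S100a8 and S100a9 removed 56 wild-type and 53 SCD cells, which held a median of 3.50% and 16.7% of their UMIs in these genes, against 0.0495% and 0.320% in the pDCs.

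In the control 7.49% of kept cells were pDCs (6.97 to 8.04), against 5.12% in the SCD mouse (4.70 to 5.55), which is 0.683 times the control share (0.609 to 0.765). With the marker rule applied to cells thinned to 3000 UMIs this ratio was 0.430 (0.381 to 0.485). Thinning left out all cells under 3000 UMIs, among them 2740 of 3922 wild-type but 1032 of 7015 SCD neutrophils. The pDC shares of the cells left were 11.65% and 5.005%, so this ratio has other denominators and is no correction for depth alone. The ratio changed direction with the denominator. Among kept cells other than neutrophils, pDCs were 12.8% in wild-type and 15.03% in SCD, and their ratio was 1.17 (1.05 to 1.31). Neutrophils, called here by S100a8 and S100a9, numbered 3922 and 7015 cells. Among pDCs and conventional DCs together the pDC share was 44.3% and 61.8%, with 889 and 337 conventional DCs. The latter were 9.43% and 3.17% of kept cells and were called by Xcr1, Clec4a4 or Cd209a together with H2-Ab1. Conventional DCs without these transcripts, such as mature Ccr7 cells, were not looked for. Thus pDCs were a smaller share of the SCD suspension but a larger share of the pDCs and conventional DCs called here. Fewer pDCs cannot be told apart from more neutrophils in suspensions of a set number of cells.

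The transcripts of the selected cells were compared with the label through genes that had not been used to select them. Tcf4, the regulator of pDC identity, stood at 2982 CPM in wild-type pDCs and 2882 CPM in SCD pDCs. Bst2, the surface antigen recognised by PDCA-1 antibodies, stood at 4458 and 3773 CPM, which was 18.4 and 20.9 times the highest other class after adding 5 CPM to each. A list of pDC-associated genes, Tcf4 and Bst2 among them, held 44 with enough counts. Of these, 28 (63.6%) were at least 2 times higher in pDCs than in every other class in both libraries. The same held for 4.76% of all 3554 genes with enough counts. The genes of the label were thus high in the selected cells of both libraries.

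**Figure D1:**
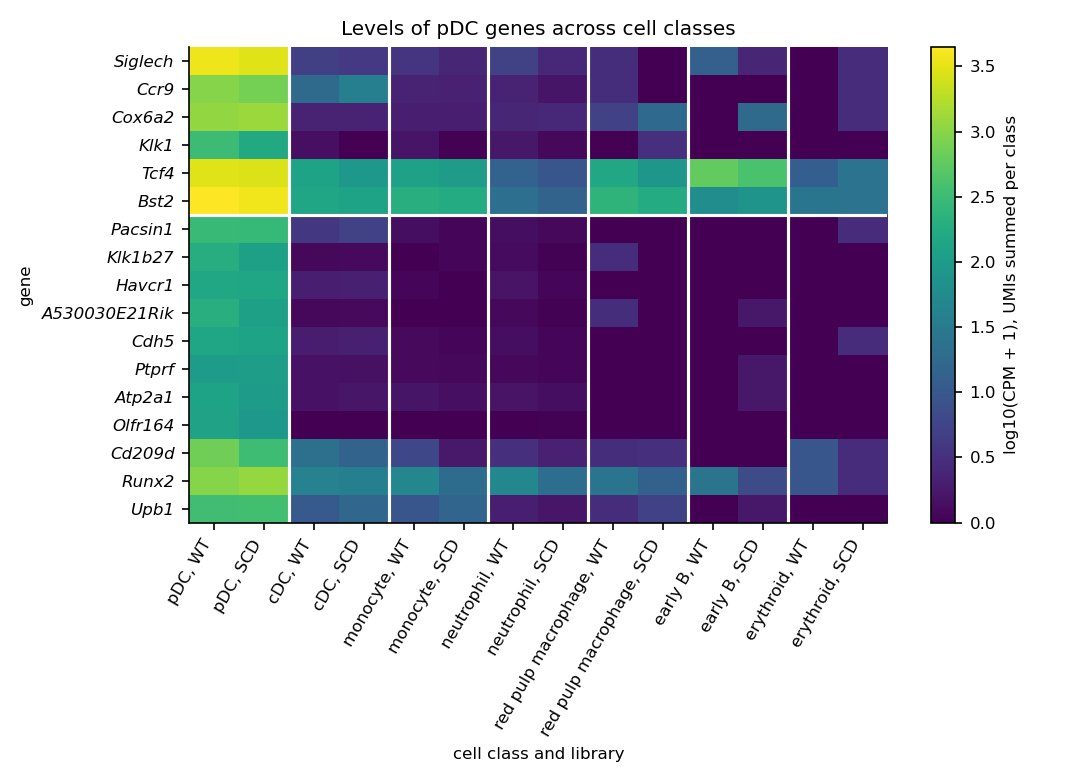
Levels of the 6 label markers (upper rows) and of further genes with the largest excess in pDCs (lower rows), as log10 of CPM plus 1, in 7 cell classes of the wild-type (WT) and the SCD library. Siglech reached 3594 and 2928 CPM in pDCs and at most 12.2 CPM in another class.

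The selection markers are given as a description. Siglech, a sialic acid-binding receptor that signals through DAP12, was at 3594 CPM in wild-type and 2928 CPM in SCD pDCs. Ccr9, the receptor for the gut and thymus chemokine CCL25, was at 982 and 773.5 CPM. Cox6a2, a cytochrome c oxidase subunit otherwise typical of heart and skeletal muscle, was at 1125 and 1255 CPM, and Klk1, a kallikrein serine protease, at 316 and 166 CPM. Klk1 had a log2 ratio of -0.91 (SCD over wild-type, after adding 5 CPM to both). After thinning each cell to 3000 UMIs, which left out 3 wild-type and 4 SCD pDCs, a Klk1 UMI was found in 45.5% and 27.8% of pDCs, against 0.0846% and 0.1003% of neutrophils, and a Cox6a2 UMI in 83.5% and 83.0%. The neutrophil values serve as background and rest on the deeper neutrophils, since 2740 of 3922 wild-type and 1032 of 7015 SCD neutrophils held under 3000 UMIs.

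Genes with the largest excess of pDCs over the highest other class, in the lower of both libraries, were taken among genes of at least 50 CPM in both, without the selection markers and immunoglobulin genes (Iglc3 had an excess of 45.9 times). They were led by Pacsin1, a membrane-bending adaptor protein, at 295 and 278.5 CPM, or at least 30.9 times the highest other class on the scale with 5 CPM added. They also held the kallikrein Klk1b27, the phosphatidylserine receptor Havcr1, the endothelial cadherin Cdh5, the receptor phosphatase Ptprf, the calcium pump Atp2a1, the olfactory receptor Olfr164, the C-type lectin Cd209d, the transcription factor Runx2, the pyrimidine-degrading enzyme Upb1 and the unnamed transcript A530030E21Rik. Olfr164 was at 125 and 87.6 CPM in pDCs and at or below 0.0668 CPM in every other class. Runx2, which governs pDC exit from bone marrow, was at 975 and 1163 CPM, against at most 50.1 and 36.6 CPM elsewhere. Klk1 and Klk1b27 belong to a cluster of near-identical genes, as do Cd209a and Cd209d, so their counts are uncertain.

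The bases before the start of 4 marker genes are shown because TCF4 and other E proteins bind the E-box. Siglech, Ccr9 and Klk1 had been used for the selection, so that their being high together is no result. The windows are the 250 bases upstream of the RefSeq start in GRCm38.p6, namely chr7:55767934-55768183 (plus strand) for Siglech, chr9:123766961-123767210 (plus strand) for Ccr9, chr7:44225110-44225359 (plus strand) for Klk1 and chr8:71537473-71537722 (minus strand) for Bst2. Capitals mark CAGGTG, or CACCTG on the other strand.
Siglech: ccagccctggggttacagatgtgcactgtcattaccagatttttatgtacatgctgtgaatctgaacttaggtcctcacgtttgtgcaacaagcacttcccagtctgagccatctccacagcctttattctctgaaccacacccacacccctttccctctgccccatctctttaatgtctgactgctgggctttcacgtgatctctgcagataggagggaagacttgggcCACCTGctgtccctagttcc
Ccr9: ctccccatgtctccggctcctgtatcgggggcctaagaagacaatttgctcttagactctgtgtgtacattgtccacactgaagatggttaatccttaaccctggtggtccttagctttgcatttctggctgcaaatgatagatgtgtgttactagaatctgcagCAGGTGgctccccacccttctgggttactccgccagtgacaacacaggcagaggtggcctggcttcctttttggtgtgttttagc
Klk1: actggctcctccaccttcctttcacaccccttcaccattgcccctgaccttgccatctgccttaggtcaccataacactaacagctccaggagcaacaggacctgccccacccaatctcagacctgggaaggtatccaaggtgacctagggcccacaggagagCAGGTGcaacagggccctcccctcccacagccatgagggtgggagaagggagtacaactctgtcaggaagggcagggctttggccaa
Bst2: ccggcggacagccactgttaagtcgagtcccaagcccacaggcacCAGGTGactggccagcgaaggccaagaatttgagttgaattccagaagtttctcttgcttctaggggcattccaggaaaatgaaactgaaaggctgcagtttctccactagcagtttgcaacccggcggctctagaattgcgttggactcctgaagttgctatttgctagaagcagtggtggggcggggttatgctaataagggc
The E-box lay 20 bases before the start in Siglech, 85 in Ccr9, 87 in Klk1 and 205 in Bst2, counted to its first base. Among the selection markers, Bst2 and the genes with the largest excess, 13 of 16 had a RefSeq window, and 6 of the 13 (46.2%) held CAGGTG on either strand, against 17.1% of 27025 windows of the same length. Siglech, Ccr9 and Klk1 of the selection rule were among the 6, and without the selection markers it was 3 of 10. CAGCTG was found in 1 of the 13 (7.69%), against 12.8%. These matches are letters in a window and do not show binding.

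Across pDCs, 3554 genes reached both minimums, 50 CPM and 20 UMIs, in either library, and the median log2 ratio over them was 0.00 (quartiles -0.16 and 0.16). Being past a fold of 2 meant a log2 ratio of 1 or more in either direction, with no test. In that sense 60 genes (1.69%) were higher in SCD pDCs and 14 (0.394%) were lower. Conventional DCs had 52 higher and 116 lower of 3302 genes, and monocytes 104 and 202 of 3451. Of the 60 higher genes in pDCs, 48 reached the minimum only in the SCD library, and of the 14 lower genes 9 only in the wild-type library, so that these had to differ in that direction, and 12 and 5 reached it in both. Of the 60, 12 were on a list of 34 cell cycle genes and 7 on a list of 15 neutrophil markers.

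**Figure D2:**
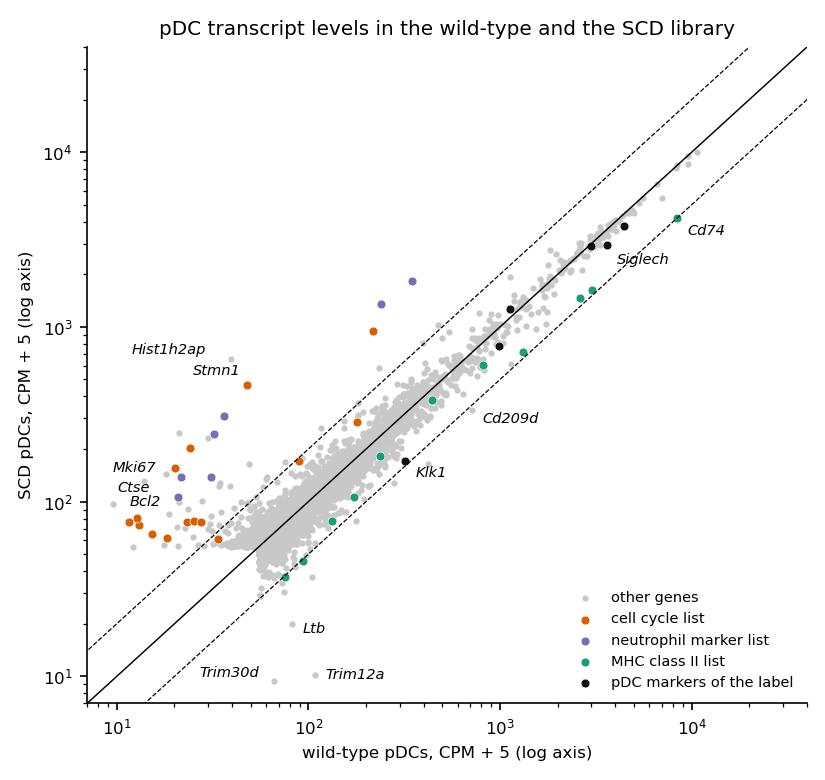
CPM plus 5 of 3554 genes in wild-type pDCs (horizontal log axis) and SCD pDCs (vertical log axis), with gene lists coloured, the line of equality solid and a fold of 2 dashed. Of the cell cycle genes 12 of 15, and of the neutrophil genes 7 of 7, lie above the upper dashed line. All 11 genes of the MHC class II list lie below equality, while the 6 label markers stay within the dashed lines.

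The 12 genes with the highest ratios are given in order of what they encode, an order chosen after the ratios were seen. Hist1h2ap, a replication-dependent histone, was at 34.6 CPM (30.7 to 38.95) in wild-type and 653 CPM (632 to 676) in SCD pDCs, a log2 ratio of 4.05. Pclaf, the PCNA clamp-associated factor, was at 16.2 and 241 CPM (3.54), and Stmn1, a tubulin-binding protein of dividing cells, at 43.0 and 457 CPM (3.27). Top2a, the topoisomerase that untangles chromosomes, was at 19.1 and 199 CPM (3.08), and Mki67, the Ki-67 antigen, at 15.1 and 150.5 CPM (2.95). Hist1h1b (3.25), Hist1h2ae (2.96) and Cenpf (2.73), a kinetochore protein, were also among them. Histone genes are near-identical copies, so the counts of single members are uncertain.

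The remaining 4 of the 12 were Camp (3.09), Ngp (2.91) and Lcn2 (2.69), which encode neutrophil granule proteins, and Ctse (3.32), an aspartic protease. Of 15 neutrophil markers 13 were above 0, 7 had enough counts, of which 5 only through the SCD library, and these 7 were past the fold, the selection genes S100a8 and S100a9 among them. The list summed to 751 CPM in wild-type against 4223 CPM in SCD pDCs, and 0 of the 15 were at 0 in either. Most of both sums was S100a8 (235 and 1342 CPM) and S100a9 (342 and 1835 CPM), which the selection had capped. The sums are thus a description and test nothing. In neutrophils of the same libraries the list summed to 301683 and 445916 CPM. S100a8, whose level the selection capped, was found in 47.2% of wild-type and 96.85% of SCD pDCs after thinning, and in 52.5% and 97.6% of conventional DCs. For scale, the Ngp level of SCD pDCs was multiplied by the ratio of each gene to Ngp in SCD neutrophils. This gave 293 CPM for Camp, against 304 measured in SCD pDCs, 71.2 against 101.3 for Ltf, 101.4 against 134 for Lcn2, 95.3 against 133 for Retnlg and 79.7 against 571 for Lyz2. The same product was 1.36 CPM for Mki67, 1.34 for Top2a, 1.59 for Stmn1 and 20.4 for Hmgb2, against 150.5, 199, 457 and 938 CPM measured. For Ctse it was 0.781 CPM against 91.3 CPM measured, and Ctse stood at 773 CPM in SCD erythroid cells. Whether neutrophil transcripts were carried into pDCs was not tested.

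With no minimum, all 34 cell cycle genes had a log2 ratio above 0, with a median of 2.06. Of the 15 with enough counts 12 were past the fold, with a median of 2.08, but 12 of the 15 had reached the minimum only through the SCD library, so that they had to be higher there. Pcna, Hmgb2 and Tuba1b reached it in both. Replication genes shared in this. Mcm5, Mcm2, Mcm3, Mcm6 and Mcm7, subunits of the replicative helicase, had log2 ratios of 2.08, 1.75, 1.72, 1.62 and 1.47, and Pcna, the sliding clamp, was at 84.3 and 165 CPM (0.93). Mitosis genes were higher as well, with Birc5, or survivin, at 7.72 and 75.1 CPM (2.65) and Ube2c, a ubiquitin-conjugating enzyme of the anaphase-promoting complex, at 8.10 and 68.7 CPM (2.49). Hmgb2, a chromatin protein abundant in cycling cells, was at 212 and 938 CPM.

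The upstream windows of Top2a, Mki67 and Mcm6 are shown because these genes were higher together and because cell cycle promoters are known for CCAAT boxes, the CHR element TTTGAA and E2F sites. The windows are chr11:99024190-99024439 (minus strand) for Top2a, chr7:135716380-135716629 (minus strand) for Mki67 and chr1:128359706-128359955 (minus strand) for Mcm6. Capitals in Top2a and Mki67 mark CCAAT, read as ATTGG on the other strand, and TTTGAA, read there as TTCAAA. Capitals in Mcm6 mark TTTGGCGC, read there as GCGCCAAA, and TTTCGCGC, read there as GCGCGAAA, and 2 of the matches overlap.
Top2a: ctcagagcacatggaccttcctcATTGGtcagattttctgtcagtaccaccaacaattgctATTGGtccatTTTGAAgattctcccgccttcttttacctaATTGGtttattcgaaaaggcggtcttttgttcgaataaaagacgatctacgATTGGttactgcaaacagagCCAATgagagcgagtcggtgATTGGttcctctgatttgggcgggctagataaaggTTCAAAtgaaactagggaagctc
Mki67: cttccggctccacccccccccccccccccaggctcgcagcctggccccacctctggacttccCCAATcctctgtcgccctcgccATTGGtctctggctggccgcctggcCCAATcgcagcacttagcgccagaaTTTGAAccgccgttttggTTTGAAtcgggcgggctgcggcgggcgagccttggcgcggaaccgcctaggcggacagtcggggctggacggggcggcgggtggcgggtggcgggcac
Mcm6: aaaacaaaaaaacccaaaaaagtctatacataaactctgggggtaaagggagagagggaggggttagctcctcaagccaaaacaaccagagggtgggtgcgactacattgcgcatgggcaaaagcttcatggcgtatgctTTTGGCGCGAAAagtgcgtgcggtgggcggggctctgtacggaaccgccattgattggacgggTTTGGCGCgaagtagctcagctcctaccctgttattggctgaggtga
The motif counts cover the 15 cell cycle genes with enough counts, of which 12 had passed the minimum only through the SCD library. These genes were thus partly picked by being higher there, so the shares describe them and test nothing. Of the 14 with a RefSeq window, 12 (85.7%) held CCAAT, against 34.5% of all windows. TTTGAA was found in 5 (35.7%), against 16.3%, and TTTGGCGC in 2 (14.3%), against 0.437%. CAGGTG was found in 0 of the 14.

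The cell cycle transcripts were unevenly spread over cells. After thinning to 3000 UMIs, 28 of 703 wild-type pDCs (3.98%, 2.66 to 5.71) and 107 of 540 SCD pDCs (19.8%, 16.5 to 23.4) held at least 5 UMIs of the list. Near this cut, 40 wild-type and 42 SCD pDCs held exactly 4, and 14 and 12 held exactly 5. With a cut of 20 UMIs the counts were 7 cells (0.996%, 0.401 to 2.04) and 57 cells (10.6%, 8.09 to 13.5). Without thinning, 67.7% and 69.7% of pDCs held at least 5 UMIs. A Mki67 UMI was found in 1.14% (0.493 to 2.23) of wild-type and 12.4% (9.75 to 15.5) of SCD pDCs after thinning. In other classes the 5-UMI share was 16.3% and 21.2% in conventional DCs, 21.3% and 56.1% in monocytes, and 61.8% and 68.0% in neutrophils of at least 3000 UMIs. Hmgb2, a member of the list, was at 2278 and 2634 CPM in neutrophils. A Mki67 UMI was found in 6.68% and 13.7% of the thinned neutrophils and a Top2a UMI in 5.75% and 11.6%. The neutrophil share thus cannot be read as a share of dividing cells. Median depths before thinning were 11050 and 9014 UMIs in pDCs and 2500.5 and 7160 in neutrophils.

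**Figure D3:**
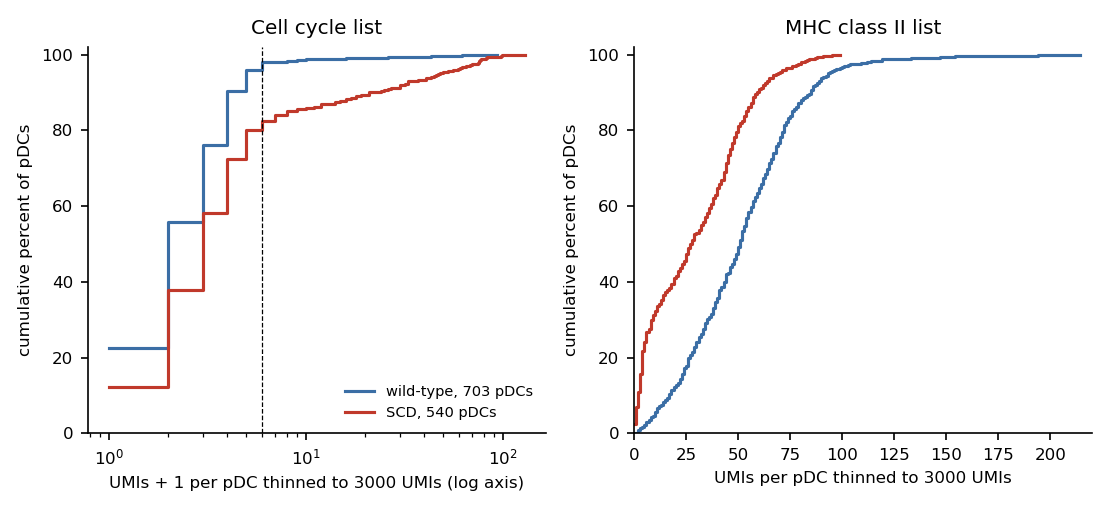
Cumulative percent of pDCs (703 wild-type, 540 SCD, each thinned to 3000 UMIs) by UMIs of the cell cycle list plus 1 (left, log axis, dashed line at 5 UMIs) and of the MHC class II list (right, linear axis). At 5 or more cell cycle UMIs lie 3.98% of wild-type and 19.8% of SCD pDCs, and the median class II count is 51 and 27 UMIs.

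pDCs with at least 5 cell cycle UMIs had another profile than the remaining pDCs of the SCD library. Their median depth was 11512 UMIs against 8769, and called doublets were 1.87% of them against 1.39%. In the wild-type library called doublets were 10.7% of the pDCs above the cut and 4.44% of those below it. Ly6d, a surface marker of lymphoid progenitors and of the pDC lineage, was at 4576 CPM in these cells (4462 to 4693) and at 1911 CPM in the remainder (1868 to 1956). Bcl2, which blocks apoptosis, was at 299 and 24.2 CPM, Cxcr4, which holds cells in bone marrow, at 236 and 44.7 CPM, and Sox4, a factor of early lymphoid cells, at 306 and 74.9 CPM. Ccnd3 (604 and 139 CPM), Vim (704 and 247 CPM) and Runx1 (253 and 133 CPM) were higher too. Genes such as Sox4, Runx1, Ccnd3 and Vim were named after their values in this split were seen, so their being higher tests nothing.

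Other genes were lower in the same cells. Siglech was at 1320 CPM against 3483, Ccr9 at 178 against 979, Klk1 at 26.4 against 214 and Bst2 at 2380 against 4250 CPM, while Cox6a2 was at 1379 against 1213 and Irf8, the DC lineage factor, at 3363 against 4016 CPM. Irf7, the factor behind interferon-alpha induction, was at 49.0 against 205.5 CPM, and Tlr7 at 32.4 against 111 CPM. Cd209d was at 52.8 against 425 CPM and Ly6a, the stem cell antigen Sca-1, at 160 against 498 CPM. Cd34 was at 11.3 and 0.520 CPM and Kit at 11.3 and 3.64 CPM, both low in either set of cells. In the wild-type library the 28 cells above the cut held a median of 5 cell cycle UMIs, against 22 in the 107 SCD cells, so these sets are not alike. For Ly6d, Bcl2 and Ccr9 these wild-type cells lay between both sets of SCD cells, but not for every gene named here. Runx1 was at 99.98 CPM in them, below both SCD sets, and Cox6a2 (1421 CPM) and Cd209d (476 CPM) were above both. Ly6d was at 4004 against 2431, Bcl2 at 99.98 against 11.9 and Ccr9 at 555 against 1001 CPM.

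**Figure D4:**
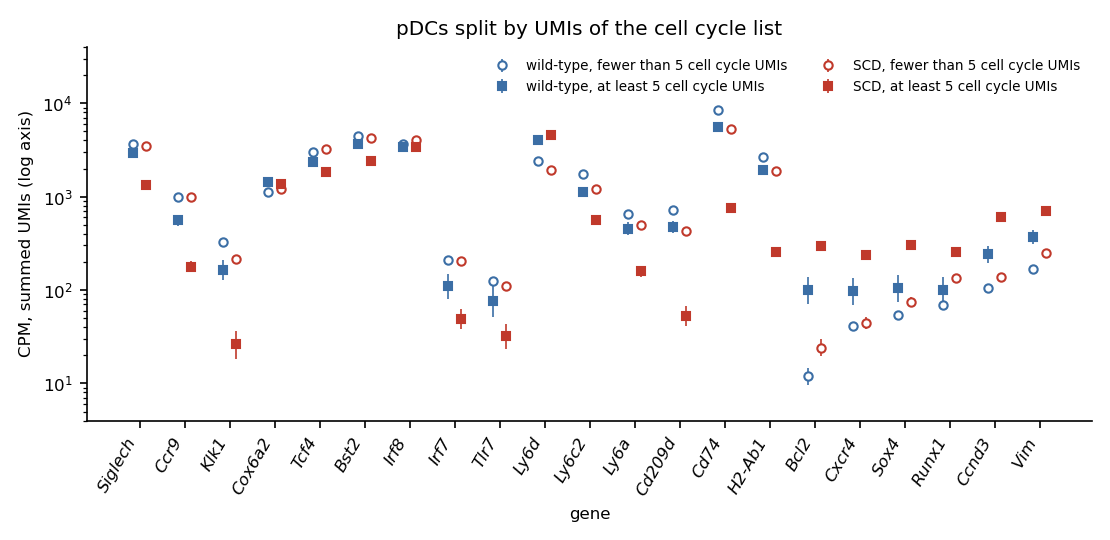
CPM (log axis) of selection markers and named genes in pDCs with at least 5 cell cycle UMIs (squares) and with fewer (circles), in both libraries, with exact 95% Poisson intervals. In SCD pDCs above the cut Ccr9 stands at 178 CPM and Ly6d at 4576 CPM, against 979 and 1911 CPM below it.

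The ratios were computed again without these cells, a choice made after seeing the data that lowers the cell cycle genes by construction. Among the remaining 675 wild-type and 433 SCD pDCs, 12 of 3445 genes (0.348%) were higher past a fold of 2 and 5 (0.145%) were lower, against 60 and 14 before, and all 12 and all 5 were among the earlier ones. Of the 12, 7 were the neutrophil markers. The other 5 were Ctse, Chil3, which is a chitinase-like protein of myeloid cells, Hba-a1, Abcg1, a cholesterol exporter at 24.5 and 62.7 CPM, and CT010467.1, a transcript with no gene name. The 5 lower genes were Trim12a, Trim30d, Ltb, Fbrsl1 and Cd209a. Of the 12, all but CT010467.1, S100a8 and S100a9 reached 50 CPM only in the SCD library. Of the 5, all but Cd209a reached it only in the wild-type library. Genes that reached it in 1 library only had to differ in that direction. Over the same 15 cell cycle genes, most of them then below the minimum, the median was 0.46, with 13 above 0 and 3 past the fold. Mki67 was at 2.88 and 12.5 CPM (1.15) and Stmn1 at 11.1 and 30.95 CPM (1.16) in the remaining cells. Bcl2 went from a log2 ratio of 2.23 to 0.79, Cxcr4 from 1.02 to 0.11 and Runx1 from 1.16 to 0.90.

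Genes of the MHC class II list were lower in SCD pDCs as a group. The list also held the costimulation and maturation genes Cd80, Cd86, Cd40 and Cd83 and the protease gene Ctss. Of these only Ctss, at 809 and 596.5 CPM, had enough counts. With no minimum 19 of 20 list members were below 0, with a median log2 ratio of -0.58. Of the 11 with enough counts, 2 of them only through the wild-type library, all were below 0 and 3 were lower past the fold, against 0.394% of all genes. Of the 3 that were lower past the fold, H2-DMb2 and March1 were the 2 that passed the minimum only in the wild-type library, so that they had to be lower in SCD, and the third was Cd74. The median of the 11 was -0.84. Cd74, the invariant chain, was at 8365 CPM (8302 to 8428) in wild-type and 4177 CPM (4122 to 4233) in SCD pDCs, which is 0.499 times the wild-type level (0.492 to 0.507). The class II chains H2-Aa (3030 and 1616 CPM), H2-Ab1 (2604 and 1453 CPM) and H2-Eb1 (1311 and 712 CPM) had ratios of -0.90, -0.84 and -0.88, and Ciita, the master regulator of the pathway, was at 127 and 72.2 CPM (-0.78). March1, which marks class II for degradation, was at 70.4 and 32.2 CPM (-1.02), and H2-DMb2, which helps load peptides, at 88.3 and 40.9 CPM (-1.02). H2-DMa was at 436 and 375 CPM (-0.21). The chains H2-Aa, H2-Ab1 and H2-Eb1 thus differed more than H2-DMa and H2-DMb1 (-0.38) did, but less than H2-DMb2. Conventional DCs, whose Cd74 was at 22287 and 19905 CPM, had been selected on H2-Ab1, so that class gives no comparison for class II.

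Class II levels were lower in the pDCs above the cell cycle cut of both libraries. In SCD pDCs with at least 5 cell cycle UMIs the list summed to 2325 CPM, against 11889 CPM in the remaining SCD pDCs, while wild-type pDCs above the cut were at 12292 CPM and those below it at 17633 CPM. Without the cells above the cut the list's median was -0.50, still with all 11 genes below 0, and the ratio of Cd74 was -0.67. Per thinned cell, the list had a median of 51 UMIs in wild-type and 27 in SCD pDCs, and its percentile 10 was 17 and 2 UMIs. An H2-Ab1 UMI was found in 92.3% of wild-type and 70.0% of SCD pDCs, and in 21.9% and 7.29% of neutrophils. In neutrophils, which should lack it, Cd74 was at 751 CPM in wild-type and 98.3 CPM in SCD, and H2-Ab1 at 289.5 and 44.3 CPM. Class II transcripts were thus lower in SCD there too, with a smaller difference in CPM than in pDCs but a stronger log2 ratio (-2.87 for Cd74). The part of free RNA in the pDC difference was not tested.

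The lower genes other than class II were few. Trim12a was at 103 CPM in wild-type and 5.21 CPM in SCD pDCs (-3.40), and Trim30d at 61.3 and 4.44 CPM (-2.81). Both were lower in other classes as well, with ratios of -3.42 and -2.01 in conventional DCs, where Trim30d was below the minimum, and -3.79 and -3.45 in neutrophils. On chromosome 7 they lie 472 and 642 kb from Hbb-bs, a gene of the locus for which the control was heterozygous and the SCD mouse homozygous. Between them, Trim12c (0.02) and Trim30a (-0.29) did not follow. These TRIM genes are near-identical, so counts can shift between them. Ltb, which encodes lymphotoxin beta, was at 77.5 and 14.9 CPM (-2.05), with a ratio of -1.98 in conventional DCs.

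Ltb, H2-DMb2 and H2-Q6 lie within 1.29 Mb on chromosome 17, a span with 25 genes that had enough counts. Of these, 20 were not class II list members, with a median log2 ratio of -0.11 and 11 below 0. Fbrsl1 (99.7 and 31.8 CPM) and Gpm6b (69.9 and 25.5 CPM) were lower in conventional DCs too, with ratios of -1.17 and -1.37, Gpm6b being below the minimum there. Cd209a (415 and 159 CPM, -1.36) and Cd209d (711 and 329 CPM, -1.10) are lectins of the DC-SIGN family, and conventional DCs were partly selected on Cd209a and held Cd209d below the minimum. Gm21762 was at 172 and 72.4 CPM in pDCs (-1.19) and had 4 and 0 UMIs in conventional DCs. Plbd1, a phospholipase B domain protein, had a ratio of -1.08 in pDCs and of 0.29 in conventional DCs. A Cd209d UMI was found in 72.0% of wild-type (68.5 to 75.3) and 35.2% of SCD pDCs (31.2 to 39.4), against 0.423% and 0.1504% of neutrophils.

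The 18 transcription factors of the lineage with enough counts had a median log2 ratio of -0.08. Irf8 was at 3642 and 3849 CPM, Spib, which acts with TCF4, at 520 and 416 CPM (-0.32), Bcl11a, needed for pDC and lymphoid development, at 1211 and 1093 CPM, and Zeb2, which restrains the conventional DC fate, at 712 and 664 CPM. The largest ratios were those of Myb, a progenitor factor, at 91.7 and 140 CPM (0.59), and Mycl, at 97.8 and 65.4 CPM (-0.55). Zbtb46, which marks conventional DCs, was at 3.86 and 1.93 CPM.

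**Figure D5:**
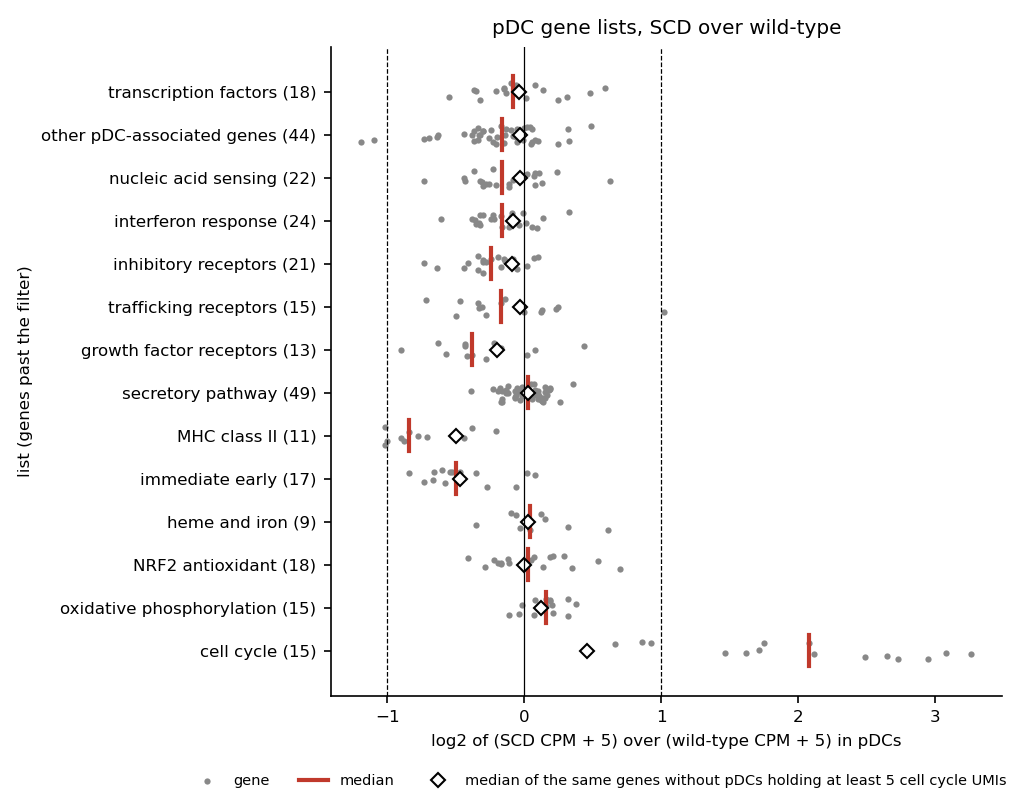
Log2 ratios (SCD over wild-type, 5 CPM added) in pDCs for genes of 14 lists, selection markers included, with the number of genes in brackets, the median as a bar and the median of the same genes without pDCs holding at least 5 cell cycle UMIs as a diamond. The cell cycle median moves from 2.08 to 0.46 and the MHC class II median from -0.84 to -0.50, and the secretory pathway stays at 0.03.

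Genes of nucleic acid sensing were present in both libraries. Of 22 with enough counts, 2 of them only through the wild-type library, 14 were below 0 and the median was -0.16. With no minimum 21 of 43 were above and 21 below 0, with a median of 0.00. Tlr7, the endosomal receptor for single-stranded RNA, was at 124 and 90.7 CPM (-0.43), and Slc15a4, a lysosomal transporter needed for its signalling, at 121 and 71.0 CPM (-0.73). Tlr9, the receptor for DNA rich in CpG, was at 6.48 and 4.63 CPM, under the minimum. Unc93b1, which carries these receptors to endosomes, was at 677 and 625 CPM, and Hmgb1 was the highest by ratio, at 768 and 1189 CPM (0.63). Without the pDCs above the cell cycle cut the median was -0.03.

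Interferon transcripts were at or near 0. Of 20 type I and type III interferon genes, 19 were at 0 in both libraries, which allows up to 0.374 CPM in wild-type and 0.579 CPM in SCD pDCs, and Ifnz had 2 UMIs in wild-type pDCs. Genes that respond to interferon had a median of -0.17 over 24 with enough counts, 19 of them below 0, and 3 of the 24 had passed the minimum only through the wild-type library. Ifi44 was at 62.5 and 39.2 CPM (-0.61) and Ifi27l2a at 871 and 1094 CPM (0.33), while Ifit1 was at 4.98 and 1.54 CPM and Isg15 at 28.4 and 24.3 CPM. The receptor chains Ifnar1 and Ifnar2 had ratios of -0.11 and -0.09. The secretory pathway, well developed in pDCs, had a median of 0.03 over 49 genes, with Xbp1, its regulator, at 313 and 279 CPM.

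Inhibitory and adaptor receptors of pDCs other than Siglech had a median of -0.22 over 20 genes, 17 of them below 0. Ly6c2 was at 1732 and 1039 CPM (-0.73), Klra17, a Ly49 family receptor, at 246 and 156 CPM (-0.64), Lag3 at 161 and 118 CPM (-0.44) and Lair1, a collagen receptor, at 896 and 705 CPM (-0.34). Without the pDCs above the cell cycle cut this median was -0.09 for the same genes. Trafficking receptors other than Ccr9 had a median of -0.16 over 14 genes, and of 0.01 without the pDCs above the cell cycle cut. Cxcr4, past the fold at 43.6 and 93.6 CPM, had reached the minimum only through the SCD library. Gpr183, an oxysterol receptor at 67.9 and 39.4 CPM (-0.72), was 1 of 3 that reached it only through the wild-type library. Growth factor receptors had a median of -0.38 over 13 genes. Flt3, the receptor that sustains DC development, was at 159 and 169 CPM and Il7r at 336 and 340 CPM, whereas Il2rg, the common cytokine receptor chain, was at 104 and 53.3 CPM (-0.90).

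Lymphoid transcripts were found in pDCs of both mice. Dntt, the polymerase that adds bases at rearranging segments, was at 150 and 211.5 CPM (0.49), with Rag1 at 0.872 and 1.74 CPM. Ighm was at 1747 and 1673 CPM, Igkc at 273.5 and 122.5 CPM (-1.13) and Iglc3 at 1131 and 608 CPM (-0.89). The B cell marker Ms4a1 was at 0.623 and 0 CPM, and Cd79a at 0.623 and 2.51 CPM. B lineage genes had a median of -0.10 over 16 with enough counts, and of 0.03 with no minimum. Of the apoptosis list only Bcl2, Mcl1 and Bax had enough counts, with a median of 0.19. Bcl2 had reached the minimum only through the SCD library. With no minimum 10 of the 17 apoptosis genes were below 0 and 6 above, with a median of -0.19.

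Heme and iron genes bear on the hemolysis of the model. Of 27, 9 had enough counts, with a median of 0.04, 5 above and 4 below 0, with Tfrc, the transferrin receptor, at 220 and 337 CPM (0.61), Fth1, ferritin heavy chain, at 6966 and 5457 CPM (-0.35) and Hmox1, heme oxygenase-1, at 10.1 and 5.596 CPM. NRF2 antioxidant genes had a median of 0.03 over 18 genes, 9 above and 9 below 0, with Prdx2 at 93.2 and 155 CPM (0.70) and Cat, catalase, at 115 and 85.1 CPM (-0.41). Nqo1 was at 0.125 and 0.579 CPM. Genes of the cytochrome c oxidase other than Cox6a2 had a median of 0.17 over 14 genes, the highest being Cox5a (0.38). Immediate early and stress genes had a median of -0.50 over 17 genes, 15 of them below 0, but 5 of the 17 had passed the minimum only through the wild-type library and so had to be lower in SCD. With no minimum 30 of 36 were below 0, with a median of -0.45. Jun, one of those 5, was at 79.0 and 42.1 CPM (-0.84) and Nfkbia at 121 and 78.4 CPM (-0.60), and the median of the 17 was -0.47 without the pDCs above the cell cycle cut. Stress genes can be set by the handling of a suspension, and this was not tested.

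Spread among pDCs was described by the Fano factor, the variance over the mean of UMIs per thinned cell. It had a median of 1.05 in wild-type and 1.06 in SCD pDCs over 4280 genes, where low means hold it near 1. The 15 most variable genes in both were Lyz2, Cd74, Actb, Ly6d, Stmn1, H2-Ab1, Ifitm3, Ly6c2, H2-Aa, Ly6a, Ifi27l2a, Hmgb2, Tmsb4x, Apoe and Igkc. They thus held class II genes, Ly6 antigens and cell cycle genes, next to the macrophage genes Lyz2 and Apoe.

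Lyz2, lysozyme, had Fano factors of 34.7 and 30.8 with a median of 0 UMIs per cell in both and highest values of 66 and 79. Ly6d had Fano factors of 5.24 and 9.54, was found in 93.2% and 86.1% of pDCs, and ran from 0 to 50 and from 0 to 68 UMIs. Hmgb2 had 3.86 and 11.9. Ly6c2 (4.24 and 4.51) and Ly6a (4.09 and 4.38), antigens by which pDCs are sorted into subsets, varied alike in the libraries, with Ly6a found in 57.2% and 44.3% of pDCs.

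Markers of other cell types were summed over pDCs to describe what else the cells held. The 11 monocyte genes summed to 3173 and 2503 CPM, most of it in Ly6c2, Ccr2 and Lyz2, of which pDCs are known to express the first 2. The 11 conventional DC genes summed to 1039 and 721 CPM, mainly Cd209a and Clec10a, with Xcr1 at 0.498 and 0.579 CPM. The 11 erythroid genes summed to 101.3 and 278 CPM, in which Hba-a1 was at 13.1 and 139 CPM, and 0 of them were at 0. The 10 B cell genes summed to 59.5 and 82.4 CPM, mostly Cd79b, with Pax5 at 0 in the wild-type and Ms4a1 at 0 in the SCD pDCs. The 9 red pulp macrophage genes summed to 42.9 and 19.9 CPM. The 10 T and NK cell genes summed to 3.11 and 36.5 CPM, most of the latter Gzma at 25.3 CPM, with Cd3e and Cd3g at 0 in both. The 6 mast cell and basophil genes summed to 0 and 0.579 CPM. Their part in the differences above was not tested.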

How the data were processed

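Droplet-based single-cell RNA-seq of DC-enriched spleen suspensions was available for 1 wild-type control and 1 SCD mouse. The authors aligned reads and counted UMIs with Cell Ranger 4.0.0 on GRCm38.p6, per the submitters' processing notes, and what the authors deposited are UMI counts that were not normalized. Strand use is not given in the sources used here.

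The limits for keeping cells were taken from the methods of the study. The methods word the mitochondrial and ribosomal limits as excluding cells under 15% and 30%, and these were read here as upper limits. A cell was thus kept if it had 500 to 5000 genes, mitochondrial UMIs below 15% and ribosomal UMIs below 30%. pDCs were chosen by the marker rule given above, and other classes by UMI rules: conventional DCs (Xcr1, Clec4a4 or Cd209a of at least 2, H2-Ab1 of at least 10), neutrophils (S100a8 and S100a9 of at least 2% of UMIs), monocytes (Csf1r, Lyz2), red pulp macrophages (C1qa, C1qb), early B cells (Vpreb1, Igll1) and erythroid cells (Rhag and Slc4a1 among others). The members and gene lists were chosen with earlier results of these data known, and some genes are not reported here.

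UMIs were summed per class and library, scaled to 1000000 and compared as log2 of (SCD CPM + 5) over (wild-type CPM + 5). Genes needed 50 CPM and 20 UMIs in 1 library. No test was possible with 1 sample per group. Intervals were exact (Poisson, Clopper-Pearson, conditional binomial for ratios) at 95%. UMIs of 1 animal are not independent replicates. Cells were thinned to 3000 UMIs for shares of cells and Fano factors. Doublets were called with Scrublet in each library, on genes seen in at least 20 kept cells (358 wild-type and 196 SCD cells). Named genes were the 12 highest and 12 lowest ratios (leaving out globin, immunoglobulin, T cell receptor, ribosomal, mitochondrial and Y-linked genes, Xist and Tsix, but no other gene of the X chromosome), the 12 largest excesses over other classes (the same genes and the selection markers left out, 50 CPM in both), the 15 most variable genes with a mean of at least 0.1 UMI in both, and list members. Genes named from pDCs split by cell cycle UMIs (such as Sox4, Runx1, Ccnd3 and Vim) and the neighbours on chromosomes 7 and 17 were chosen after their values were seen. Upstream sequences came from RefSeq (GRCm38.p6). The ratio function was tested on simulated counts. The tools were scanpy 1.11.5, pandas 2.3.3, numpy 2.4.6, matplotlib 3.10.9 and scipy 1.17.1 under Python 3.11.15.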

Additional observations from a re-analysis of the deposited data

Results flagged for a closer look

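Cells with over 5000 detected genes lay outside the comparisons above. Of all cells that met the marker rule, 18 of 724 wild-type cells (2.49%, 1.48 to 3.90) and 26 of 570 SCD cells (4.56%, 3.001 to 6.61) were among them, a higher share than in the control library with intervals that overlap. After thinning, 10 of the 18 (55.6%, 30.8 to 78.5) and 22 of the 26 (84.6%, 65.1 to 95.6) held at least 5 cell cycle UMIs. Their median depths were 26458 and 30094 UMIs.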

How the results depend on the processing

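No paired analysis was possible because there was only 1 library of each genotype. Leaving out the pDCs with at least 5 cell cycle UMIs, and removing the upper limit on genes per cell for ratios and for the cell cycle share, were chosen after seeing the data. Values outside the counting interval, and counts of genes changed by over 1.5 times, were taken as moved. The cause was not tested for any value below, except where a denominator, a minimum or a left-out set of cells changes it by construction.

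The ratio of pDC shares was 0.568 with at least 1000 genes per cell, 0.430 with the rule applied to cells thinned to 3000 UMIs, and 1.17 (reversed) when neutrophils were left out of the denominator. Thinning also left cells under 3000 UMIs out of the denominator. The 60 higher and 14 lower genes became 269 and 47 with no minimum of CPM and UMIs, 12 and 5 without pDCs above the cell cycle cut, and 99 and 24 with no upper limit on genes. The lower genes became 8 with a pseudocount of 20 CPM and 8 with the stricter rule (marker sum of 16, Siglech of 5). For list medians, here with selection markers included, 125 of 143 alternative values stayed within the interval. Without pDCs above the cut the medians were -0.03 for other pDC-associated genes, -0.09 for inhibitory receptors, -0.03 for trafficking receptors (0.01 without Ccr9), -0.50 for MHC class II, -0.20 for growth factor receptors and -0.01 (reversed) for the apoptosis list, which then held 2 genes, while its same 3 genes gave 0.19. With no upper limit the first 4 of these were -0.26, -0.35, -0.29 and -1.01. With no minimum they were 0.00 for nucleic acid sensing, -0.58 for MHC class II, -0.17 for growth factor receptors, 0.03 (reversed) for B lineage genes and -0.19 (reversed) for the apoptosis list. The cell cycle median was 1.40 with the pseudocount of 20 CPM and 1.62 with the stricter rule, and the MHC class II median -0.73 with the stricter rule. The share of pDCs with at least 5 cell cycle UMIs was 67.7% and 69.7% without thinning, and in SCD pDCs 16.1% with the stricter rule and 23.7% with no upper limit. Of 216 alternative values of the 24 genes named by ratio, 47 moved and 0 changed direction. Median-of-ratios scaling moved none of the counts or list medians.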
